A study of Drosophila melanogaster with 13 samples.

Results

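The genes lncRNA:roX1 (roX1) and lncRNA:roX2 (roX2) make the long non-coding RNAs that Drosophila males build into the male-specific lethal (MSL) complex. Every peak lying within 50 kb of either gene was taken from 6 lists of ChIP-seq peaks, which gave 33 of the 6400 listed peaks, 12 around roX1 and 21 around roX2. In ChIP-seq an antibody recovers crosslinked chromatin, and a peak is a stretch of DNA recovered more often than its background. In the dm6 genome roX1 lies on the minus strand of the X chromosome (chrX:3857230-3862697, 5468 bp) and roX2 on the plus strand (chrX:11579065-11580432, 1368 bp), and both are annotated as non-coding RNA genes.

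The lists describe MSL1, MSL2 and MSL3 in chromatin of whole adult males, 2 to 3 days old, of 2 lines. All males were y1 w1118 and homozygous for mle9, so they lacked functional MLE from its own gene, and MLE came from a FLAG-tagged transgene at 86Fb under the ubiquitin-p63E promoter, which is active in most cells. In the MLEwt line the transgene was Ubi:mleWT-FLAG and stood over the balancer TM6, and in the MLEΔCBD line it was Ubi:mleΔCBD-FLAG, homozygous and without the CLAMP binding domain (CBD) of MLE. The deletion, the transgene dose and the balancer therefore differ together between the lines, and their parts cannot be told apart. By the paper's immunoblots, MLE protein was at a similar level in these lines despite the dose, and MSL1 and MSL2 showed no significant difference. The 12 libraries (2 per protein and line, made with rabbit antibodies) were combined by the authors into 1 list per protein and line. A further library, 1 preimmune control, was not analysed here. It is labelled wt, and no control is labelled for MLEΔCBD. The lists held 293 and 577 MSL1 peaks, 222 and 92 MSL2 peaks, and 2915 and 2301 MSL3 peaks in MLEwt and MLEΔCBD, in that order. With 1 list per group there is no replicate error and no test between lines, and no p-value is given for any difference. Read depth is unknown. Each list does carry the values of 2 peak sets for every peak, and both are given where they bear on a result.

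In males the MSL complex raises transcription of the single X chromosome. MSL1 and MSL2 form its core, which binds DNA first at high affinity sites that often hold GA repeats. MSL3, a chromodomain protein, is the subunit tied to spreading from those sites into the bodies of active genes, and MOF, its acetyltransferase, acetylates histone H4 there. MLE is a helicase that unwinds the stem-loops of the roX RNAs so that they can be taken up into the complex. CLAMP is a zinc finger protein that binds GA repeats. The genes roX1 and roX2 are themselves known entry sites of the complex, and they are known to replace each other in large part.

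The DNA under the MSL2 summits of the MLEwt line, 100 bp on either side, is printed from the RefSeq copy of the dm6 genome along the strand of each gene, because these are the points on which all 3 proteins met. Capitals mark every run of at least 3 GA units in the line printed, read as GA or as its complement TC. The first stretch is chrX:3861219-3861419 (minus strand) and the second is chrX:11580146-11580346 (plus strand).
roX1 summit: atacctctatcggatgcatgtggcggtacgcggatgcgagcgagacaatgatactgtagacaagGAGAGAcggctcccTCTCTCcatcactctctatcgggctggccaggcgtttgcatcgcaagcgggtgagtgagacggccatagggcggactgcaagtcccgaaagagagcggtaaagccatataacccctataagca
roX2 summit: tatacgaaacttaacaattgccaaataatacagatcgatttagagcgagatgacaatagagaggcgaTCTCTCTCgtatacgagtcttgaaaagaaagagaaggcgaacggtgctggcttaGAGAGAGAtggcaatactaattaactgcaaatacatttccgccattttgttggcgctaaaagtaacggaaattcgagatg

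At roX1 the stretch held 1 run of 3 GA units and 1 run of 3 TC units, 31 and 17 bp from the summit, facing each other across a few bases. At roX2 it held 1 run of 4 TC units and 1 of 4 GA units, 26 and 21 bp from the summit and on opposite sides of it. A run of 4 GA units on either strand lay within 100 bp of the summit at 30.1% of the X peaks of MSL2 in MLEwt, 21.1% of those of MSL1 and 3.50% of those of MSL3, against 1.53% of X chromosome tiles of the same length. By that count the roX2 summit held the repeat in all 6 lists, and the roX1 summit held it in none. With 3 units the shares were 45.4%, 33.2% and 10.0%, against 7.41% of tiles, and both roX summits then held the repeat in every list. The match is a description of the letters, and binding of any factor to them was not tested.

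The roX boxes are the second kind of sequence at these genes. They are short conserved stretches of the RNAs, within the stem-loops that MLE unwinds, and were sought here as GTTNTACG on the strand of the gene. The matches are printed with 8 bases on either side and the box in capitals, since their distance from the chromatin peak differs between the genes. The 3 matches in roX1 start 3658, 3725 and 3776 bp from its start (chrX:3859025-3859048, chrX:3858958-3858981 and chrX:3858907-3858930, minus strand), and the 2 in roX2 start 1015 and 1080 bp from its start (chrX:11580071-11580094 and chrX:11580136-11580159, plus strand).
roX1 box 1: tgatcaacGTTCTACGcagttctt
roX1 box 2: gtggaaacGTTATACGaatcttca
roX1 box 3: ttgaaatcGTTATACGcctgagcc
roX2 box 1: tgggtaacGTTTTACGcgccttaa
roX2 box 2: agtgaaatGTTATACGaaacttaa

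In roX1 the boxes lay 2283 to 2401 bp from the MSL2 summit, in the part of the gene nearest its 3′ end. In roX2 they lay 164 and 99 bp from the summit, so the boxes and the summit shared one short stretch of the gene. Of X chromosome tiles as long as roX1, each read on whichever strand held more matches, 29.2% held at least 1 such match and 0.441% held at least 3. Of tiles as long as roX2, 8.33% held at least 1 match and 0.250% held at least 2.

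Both roX genes carried a peak of every protein in both lines, with its summit inside an exon of the gene, and by fold enrichment these peaks ranked between 1 and 94 among the X peaks of their list. At roX1 the 6 summits, 1 per list, fell within 16 bp of each other, 1370 to 1386 bp from the start of the gene. At roX2 they fell within 48 bp, 1136 to 1184 bp from the start and 183 to 231 bp before the 3′ end. In the first set the MSL1 and MSL2 summits of roX2 lay 5 to 7 bp apart within a line, while the MSL3 summit lay 45 bp (MLEwt) and 33 bp (MLEΔCBD) to the 5′ side of the MSL2 summit. The second set of MLEwt placed them at chrX:11580245 (MSL1), 11580208 (MSL2) and 11580212 (MSL3), so there MSL3 lay on the 3′ side of MSL2. In MLEΔCBD the second set kept the side, with MSL2 at 11580241 and MSL3 at 11580205. Between lines no summit moved by more than 15 bp at either gene in the first set and 33 bp in the second. The pair of peak sets of a list placed the same summit 1 to 38 bp apart, the widest being MSL2 of MLEwt at roX2, so none of these shifts between lines exceeded the largest shift between sets.

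**Figure D1:**
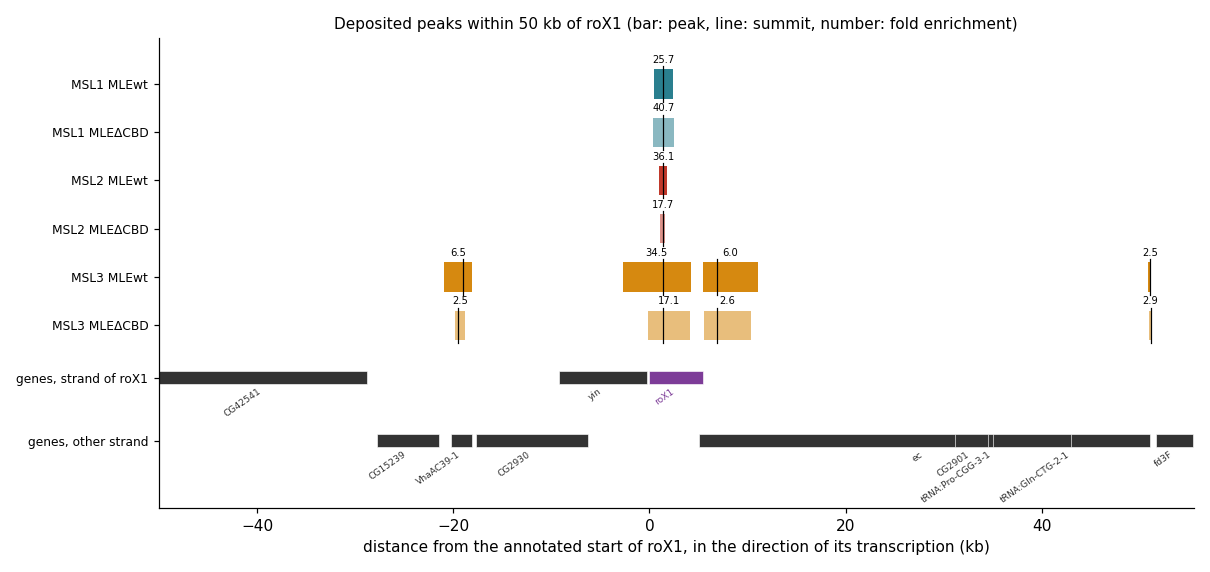
The map shows every listed peak within 50 kb of roX1 against the distance from the start of the gene in kb, in 1 row per protein and line, with a black line at the summit, the fold enrichment above each bar and the annotated genes underneath. MSL1 and MSL2 appear as a single bar over roX1, and the MSL3 bar over roX1 is 6982 bp wide in MLEwt and 4297 bp in MLEΔCBD.

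MSL1 had its highest peak of the whole list at roX1 in both lines. Fold enrichment, the ratio of ChIP signal to background at the summit as the peak caller gives it, was 25.7 in MLEwt (chrX:3860277-3862260, 1984 bp) and 40.7 in MLEΔCBD (chrX:3860235-3862330, 2096 bp). The −log10 p of the 2 peak sets was 720 and 712 in MLEwt and 1285 and 1230 in MLEΔCBD. The higher value thus belonged to the MLEΔCBD list in both sets, although by −log10 p the peak ranked 4 of 577 there. The second peak set gave widths of 2102 and 1830 bp, so the order of the widths turned with the set.

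At roX2 the MSL1 peak ranked 2 of 293 in MLEwt, with a fold enrichment of 17.2 (chrX:11579364-11580872, 1509 bp). In MLEΔCBD it ranked 15 of 577 and 4 of the 187 X peaks, with a fold enrichment of 19.1 (chrX:11577964-11580969, 3006 bp). The −log10 p values of the sets, 402 and 383 in MLEwt and 447 and 385 in MLEΔCBD, were close to each other. What differed was the width, 1675 and 3539 bp in the second set, and the added length lay on the 5′ side. From the summit the peak reached 877 bp upstream in MLEwt and 2278 bp in MLEΔCBD, past the start of roX2 and into the 3′ end of CG11695, while downstream it reached 631 and 727 bp.

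MSL2, the subunit made only in males, had its highest peak at roX1 in both lists as well. Fold enrichment was 36.1 in MLEwt (chrX:3860894-3861710, 817 bp) and 17.7 in MLEΔCBD (chrX:3861068-3861648, 581 bp). The −log10 p of the sets was 2030 and 635 in MLEwt and 621 and 287 in MLEΔCBD, so the sets of MLEwt differed from each other more than the lower of them differed from MLEΔCBD. At roX2 the MSL2 peak ranked 4 of 222 in MLEwt, with a fold enrichment of 17.6 (chrX:11579474-11580735, 1262 bp), and 9 of 92 in MLEΔCBD, with 6.69 (chrX:11580046-11580408, 363 bp). Here both sets of MLEwt (735 and 456) lay above both of MLEΔCBD (130 and 100). The narrower peak of MLEΔCBD still spanned 203 bp on the 5′ side of the summit and 159 bp on the 3′ side, which includes both roX boxes.

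MSL3 covered more ground. Over roX1 its peak had a fold enrichment of 34.5 and ranked 9 of 2915 in MLEwt (chrX:3858458-3865439, 6982 bp), and 17.1 with rank 40 of 2301 in MLEΔCBD (chrX:3858536-3862832, 4297 bp). Among X peaks alone these ranks were 8 of 1030 and 4 of 687. The −log10 p of the sets was 1707 and 1604 in MLEwt and 649 and 526 in MLEΔCBD. The shortening was one-sided, because from the summit the peak reached 2865 bp towards the 3′ end of roX1 in MLEwt and 2791 bp in MLEΔCBD, but 4116 and 1505 bp on the other side, where it ran out of roX1 into the 3′ end of yin.

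Over roX2 the MSL3 peak had a fold enrichment of 17.2 and ranked 102 of 2915 in MLEwt (chrX:11576878-11585276, 8399 bp), and 6.88 with rank 253 of 2301 in MLEΔCBD (chrX:11577067-11583712, 6646 bp). Among X peaks it ranked 94 and 75. The −log10 p of the sets was 632 and 564 in MLEwt and 150 and 136 in MLEΔCBD. From the summit it reached 3323 and 3149 bp upstream and 5075 and 3496 bp downstream, so here too the edge beyond one end of the gene moved further than the other. The median X peak of MSL3 was 2287 bp wide in MLEwt and 1200 bp in MLEΔCBD, with median fold enrichments of 5.06 and 3.14.

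**Figure D2:**
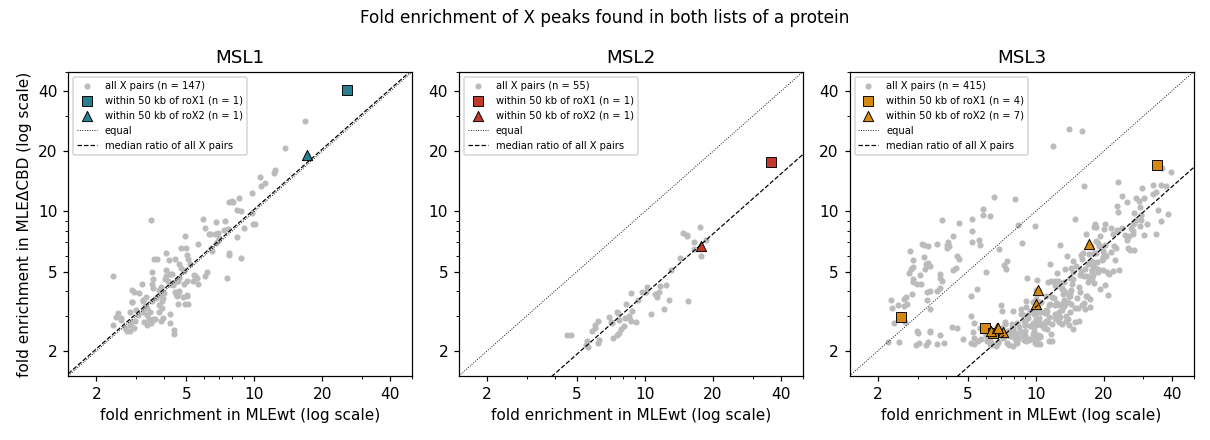
Each point is an X peak of MLEwt that overlaps a peak of the same protein in MLEΔCBD, with its fold enrichment in MLEwt on the x axis and in MLEΔCBD on the y axis (both log scales), squares for peaks within 50 kb of roX1 and triangles for roX2. The roX1 peaks of MSL1 and MSL2 stand at the upper end of their panels, and the MSL2 and MSL3 points lie mostly below the dotted line of equal values.

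The 2 lists of a protein are not scaled to each other, and fold enrichment depends on depth and background, so the change at roX1 and roX2 was read against all X peaks found in both lists of the protein. The ratio of MLEΔCBD to MLEwt had a median of 1.03 for MSL1 (147 pairs, quartiles 0.871 and 1.22), 0.386 for MSL2 (55 pairs, quartiles 0.343 and 0.421) and 0.331 for MSL3 (415 pairs, quartiles 0.275 and 0.462). At roX1 the ratio was 1.58 for MSL1, and 4 pairs were higher. For MSL2 at roX1 it was 0.490, again with 4 pairs higher. The MSL3 peak of roX1 had a ratio of 0.494, with 95 pairs higher. At roX2 the ratios were 1.12 for MSL1 (59 pairs higher), 0.379 for MSL2 (29 higher) and 0.400 for MSL3 (127 higher). The roX2 peaks thus lay within the quartiles of their lists for all 3 proteins, and the roX1 peaks lay above the upper quartile for all 3. Ratios above the upper quartile for all 3 proteins also occurred elsewhere on the X chromosome, so this is not particular to roX1. An example had 1.51 for MSL1 (MLEwt peak from chrX:17821245), 0.495 for MSL2 (from chrX:17821366) and 0.492 for MSL3 (from chrX:17820264). The X pairs take in peaks of every height. A peak enters these pairs only if it passed the threshold in both lines, so the pairs leave out the peaks that were listed in 1 line alone. Fold enrichment is listed once per peak and not for the second peak set, so these ratios have no second value.

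MSL1 and MSL2 did not have a second peak within 50 kb of either gene in either line. Their nearest other peaks around roX1 were, on the upstream side, 91.7 kb away for MSL1 in both lines and 87.9 kb away for MSL2 in MLEwt, where the nearest on the downstream side was at 79.7 kb. In MLEΔCBD the nearest other MSL2 peaks were 823 and 1415 kb from roX1. Around roX2 the nearest other MSL2 peaks lay 121.8 and 122.2 kb away in MLEwt and 182.3 and 122.7 kb away in MLEΔCBD. Of the 216 X peaks of MSL2 in MLEwt, 78 likewise had no other within 50 kb, and the median distance to the nearest was 31.5 kb, with 45 peaks farther from their neighbour than roX1 and 23 farther than roX2.

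The MSL1 and MSL2 peaks at roX1 and roX2 in MLEwt, 2 of 2 for each protein, were found again in MLEΔCBD (overlap of at least 1 bp), where 59.5% of all X peaks of MSL1 and 25.5% of those of MSL2 were. These shares take in X peaks of every height, while the roX peaks ranked 1 and 2 (MSL1) and 1 and 4 (MSL2) in MLEwt. The MSL2 peaks between them in rank, with fold enrichments of 18.7 and 17.7, were found again as well, so this is not particular to the roX genes. For MSL3, 11 of 13 were found again, 4 of 4 around roX1 and 7 of 9 around roX2, against 40.3% over the X chromosome. That share too takes in peaks of every height, with a median fold enrichment of 5.06 in MLEwt. The 2 peaks not found again both lay over the 3′ part of Drak, with fold enrichments of 2.78 and 4.22, below that median. A peak found again 45.4 kb from roX1 lay below it as well, at 2.53. In the other direction every peak of MLEΔCBD around the genes (2 for MSL1, 2 for MSL2, 12 for MSL3) overlapped a MLEwt peak, and the share over all X peaks was 78.6%, 93.2% and 95.5%.

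**Figure D3:**
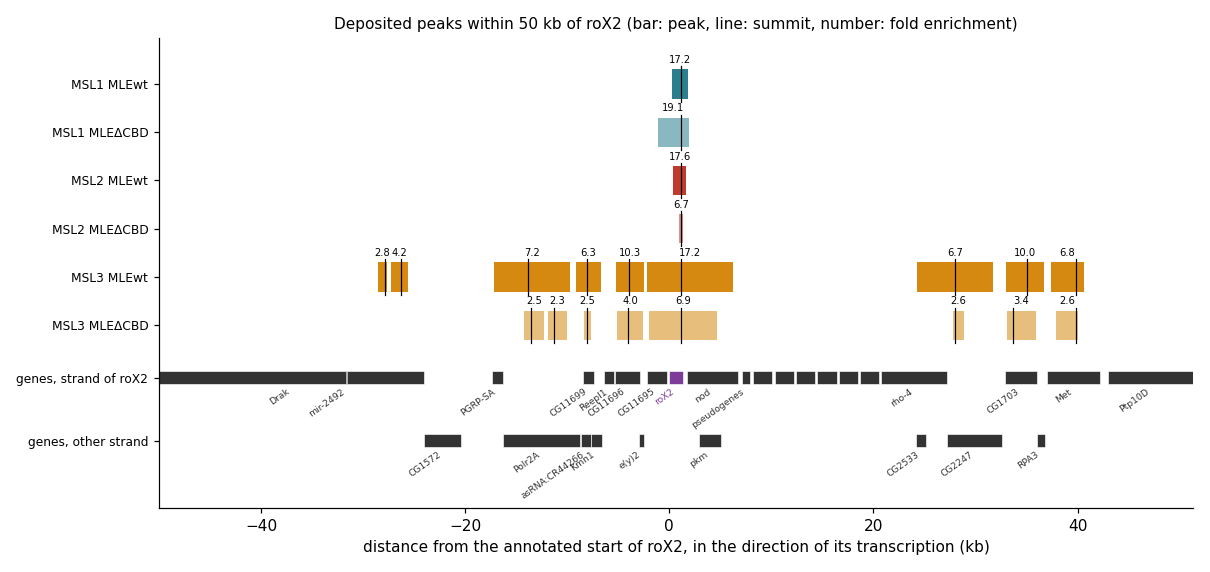
The map shows every listed peak within 50 kb of roX2 against the distance from the start of the gene in kb, in 1 row per protein and line, with a black line at the summit, the fold enrichment above each bar and the annotated genes underneath. MSL3 has 9 bars in MLEwt and 8 in MLEΔCBD on either side of a stretch of pseudogenes without a peak, and MSL1 and MSL2 have 1 bar each.

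Genes within 50 kb were then counted by whether a peak overlapped their body. There were 11 around roX1, 8 of them protein-coding, and 29 around roX2, 19 of them protein-coding. Over all 2704 X genes, MSL1 peaks overlapped 9.65% in MLEwt and 8.43% in MLEΔCBD, MSL2 peaks 8.95% and 2.29%, and MSL3 peaks 50.5% and 23.4%. Of X genes under a peak in MLEwt, 71.3% were also under one in MLEΔCBD for MSL1, 25.2% for MSL2 and 45.6% for MSL3.

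Besides the roX genes themselves, MSL1 touched only the neighbours of roX2. Its peak reached nod, which encodes a kinesin-like protein of chromosome segregation and starts 340 bp downstream, over 2.03% of the gene in MLEwt and 3.98% in MLEΔCBD. CG11695, which ends 259 bp upstream, was not reached in MLEwt and was covered over 43.8% in MLEΔCBD. roX2 itself lay under MSL1 over 78.1% of its length in MLEwt and in full in MLEΔCBD, and roX1 over 36.3% and 38.3%. MSL2 overlapped no neighbour. It covered 14.9% of roX1 in MLEwt and 10.6% in MLEΔCBD, and 70.1% and 26.5% of roX2.

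MSL3 lay over 23 of the 40 genes in MLEwt and 16 in MLEΔCBD, and all 16 were among the 23. Around roX1 the count went from 4 to 3 and around roX2 from 19 to 13. The share kept is above the 45.6% of the X chromosome, but the genes share peaks with each other and the MSL3 lists were not scaled to each other, so the excess carries no test. Of these 16, roX2 was covered in full in both lines and the others less in MLEΔCBD than in MLEwt. Over all 16, the median share of the gene body under MSL3 was 96.7% in MLEwt and 69.0% in MLEΔCBD.

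Around roX1, MSL3 lay on 3 other genes in MLEwt. The nearest gene on the downstream side, ec, overlaps the 3′ end of roX1 on the opposite strand and is known for its role in the removal of surplus cells in the developing eye. It carried a peak over its 3′ end (chrX:3851660-3857287 in MLEwt, chrX:3852370-3857180 in MLEΔCBD), with the summit inside an exon of ec. Fold enrichment there was 5.98 in MLEwt and 2.59 in MLEΔCBD. Because the genes overlap and ChIP does not tell strands apart, the stretch where they overlap cannot be assigned to either. yin, an oligopeptide transporter gene that ends 269 bp upstream of roX1, lay under the flank of the roX1 peak over 27.6% of its body in MLEwt and under no peak in MLEΔCBD. CG2930, the next gene on that side, had none in either line. VhaAC39-1, which encodes a subunit of the vacuolar proton pump and lies 18.1 kb upstream, was covered over 96.4% in MLEwt (fold enrichment 6.45) and 47.6% in MLEΔCBD (2.46). It was the farthest gene under MSL3 on the upstream side in both lines, as ec was on the downstream side.

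1 peak near roX1 did not follow the others. A narrow MSL3 peak at the 5′ end of ec, 45.4 kb from roX1, with its summit between ec and fd3F, a forkhead factor gene, had a fold enrichment of 2.53 in MLEwt (317 bp, −log10 p 17.5 and 13.9 in the sets) and 2.94 in MLEΔCBD (260 bp, 26.6 and 20.6). Its ratio of 1.16 was exceeded by 56 of the 415 X pairs, whereas the other 3 pairs around roX1 had ratios of 0.381 to 0.494 and the 7 around roX2 of 0.344 to 0.400. It was the one pair of the 11 in which both sets of MLEΔCBD lay above both of MLEwt.

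Around roX2 the MSL3 peaks of MLEwt covered most of the neighbours on the upstream side, up to 20 kb away. CG11695 and CG11696 were covered over 100% and 97.3% in MLEwt and 90.4% and 91.3% in MLEΔCBD. Between them e(y)2, which encodes a small subunit shared by the SAGA co-activator and an mRNA export complex, was covered over 98.2% and 72.6%. The peak whose summit lay in CG11696 had a fold enrichment of 10.3 in MLEwt and 4.02 in MLEΔCBD. Further out, CG11699, which overlaps the antisense RNA gene asRNA:CR44266, was covered over 100% and 65.4%. Kmn1, a kinetochore gene that overlaps its end, went from 92.7% to 3.49%, so it still counts as a gene under a peak although little of it was.

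Polr2A, the gene of the largest subunit of RNA polymerase II, lies 8.74 kb upstream of roX2 and was covered over 91.6% in MLEwt and 50.9% in MLEΔCBD. In MLEwt most of it lay under 1 peak of 7433 bp (chrX:11561886-11569318, fold enrichment 7.16), which also reached PGRP-SA, a receptor gene of the Toll immune pathway. In MLEΔCBD the list had 2 peaks inside it (1987 and 1842 bp, fold enrichment 2.48 and 2.26) and none over PGRP-SA. The second peak set of MLEΔCBD held 1 peak of 4298 bp in place of these 2, so the split belongs to the first set only. Beyond it, Drak, a gene of the death-associated protein kinase family, carried 2 peaks near its 3′ end in MLEwt (fold enrichment 2.78 and 4.22) and none in MLEΔCBD, which moved the farthest gene under MSL3 on this side from Drak to Polr2A.

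Downstream of roX2, nod and pkm, which lies inside nod on the other strand, were under the flank of the roX2 peak, over 90.5% and 100% in MLEwt and 59.1% and 79.1% in MLEΔCBD. Then came 7 pseudogenes, CR43211 to CR43217, spanning 13.4 kb without a peak of any protein in either line. Of these, 6 are 1891 bp long and 99.8% to 99.9% identical to each other. Reads from such copies often cannot be placed, so the absence of peaks there does not show an absence of MSL3.

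Past the pseudogenes, rho-4, a rhomboid protease gene, and CG2533 lay under MSL3 in MLEwt (46.0% and 92.0%) and under no peak in MLEΔCBD. Their peak, 7500 bp wide in MLEwt with a fold enrichment of 6.73, was 1078 bp wide in MLEΔCBD with 2.61 and lay within CG2247, which went from 84.4% to 20.1%. CG1703 kept most of its cover (97.1% and 87.7%), with a fold enrichment of 9.99 and 3.44, while RPA3, a subunit gene of replication protein A that shares the end of that peak in MLEwt, went from 90.1% to none. Met, which encodes a receptor of juvenile hormone and lies 35.7 kb from roX2, went from 63.9% to 43.0%, with a fold enrichment of 6.80 and 2.61, and was the farthest gene whose own peak lay within 50 kb. Ptp10D, a receptor tyrosine phosphatase gene that begins 41.6 kb away and runs out of the window, had 4 MSL3 peaks beyond it in MLEwt and none in MLEΔCBD, and is counted here because part of its body lies inside.

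The genes under no MSL3 peak in either line within 50 kb were fd3F, CG2901, CG2930, CG15239, CG42541 and 2 tRNA genes around roX1, and CG1572, Reepl1, mir-2492 and the 7 pseudogenes around roX2. Where an MSL3 summit of MLEwt lay in a protein-coding gene (10 peaks), it stood at a median of 68.1% of the way from the start to the end of the gene, against 63.2% for all 1042 such placements on the X chromosome. In MLEΔCBD the median was 53.9% for 9 peaks, against 63.9% for 610 placements. The second peak set gave 69.1% in MLEwt (10 peaks) and 68.4% in MLEΔCBD (8 peaks), against 64.5% and 65.0%, so the lower median of MLEΔCBD belongs to the first set only. The summit in Met was at 54.3% in MLEwt and 53.7% in MLEΔCBD, and the second set gave 54.3% and 54.2%. In CG1703 the summit of MLEΔCBD was at 25.7% of the gene in the first set, 1373 bp from that of MLEwt, but at 68.7% in the second set, 13 bp from it.

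**Figure D4:**
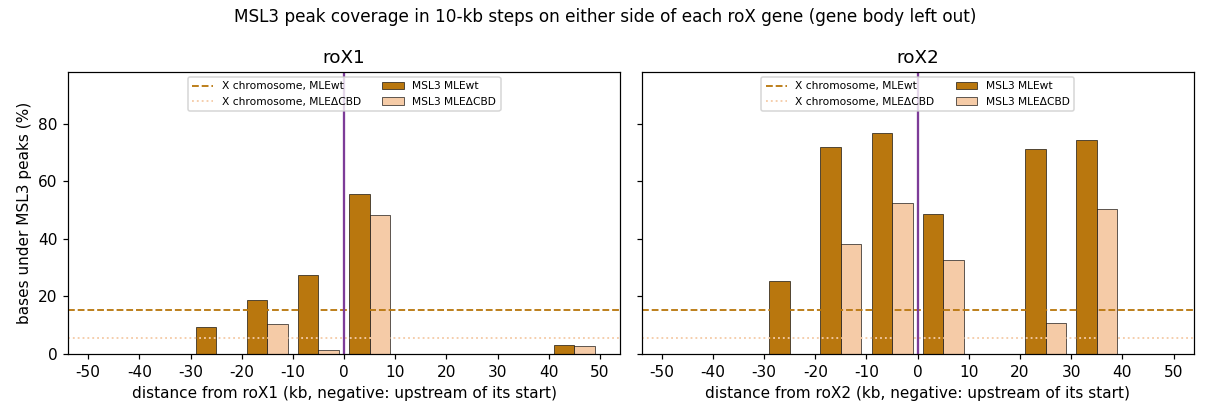
Bars give the percent of bases under MSL3 peaks in steps of 10 kb on either side of each roX gene (x axis, distance in kb, negative upstream), dark for MLEwt and pale for MLEΔCBD, with lines at the share over the X chromosome (15.3% and 5.44%). Next to roX1 the bars fall from 27.4% to 1.35% upstream but from 55.7% to 48.1% downstream, and around roX2 the first upstream step has 76.7% and 52.6%.

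The length under MSL3 peaks was 15.7 kb of the 105-kb window of roX1 in MLEwt and 10.4 kb in MLEΔCBD, 14.9% and 9.88% of its bases. In the 101-kb window of roX2 it was 38.2 and 19.8 kb, 37.6% and 19.6%, with the 13.4 kb of pseudogenes counted as uncovered. Over the X chromosome MSL3 peaks covered 15.3% in MLEwt and 5.44% in MLEΔCBD. The window of roX1 was therefore at the level of the chromosome in MLEwt and above it in MLEΔCBD, and the window of roX2 was above it in both. MLEΔCBD kept 66.3% of the MSL3 length around roX1 and 52.0% around roX2, against 35.5% over the X chromosome. The second peak set gave 60.9%, 53.9% and 34.4%, so the order was the same.

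Outside the gene, MSL3 covered 5.89 kb downstream and 5.55 kb upstream of roX1 in MLEwt, and 5.07 and 1.19 kb in MLEΔCBD, so the sides were nearly even in the first list only. In steps of 10 kb, the first downstream step had 55.7% in MLEwt and 48.1% in MLEΔCBD, and no peak followed from there to 40 kb. On the upstream side the first step went from 27.4% to 1.35%, the second from 18.7% to 10.6% and the third from 9.38% to 0. Around roX2 the first 2 steps upstream had 76.7% and 71.8% in MLEwt and 52.6% and 38.3% in MLEΔCBD, and the third went from 25.5% to 0. Downstream, the first step went from 48.4% to 32.8%, the second was empty in both lines, the third went from 71.1% to 10.8% and the fourth from 74.3% to 50.2%. The pseudogenes, where reads often cannot be placed, fill most of the second downstream step and the outer part of the first. The low values of these steps therefore do not show an absence of MSL3. Beyond the pseudogenes cover did not fall steadily with distance from roX2 in either line. The fourth step had more than the third, and the fifth was empty in both lines.

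For MSL1 and MSL2 the same lengths describe only the peak at the gene. MLEΔCBD kept 106% of the MSL1 length at roX1 (87.1% in the second set) and 199% at roX2 (211%), against 59.5% over the X chromosome (56.9%). For MSL2 it kept 71.1% at roX1 (64.0%) and 28.8% at roX2 (37.0%), against 13.0% over the X chromosome (16.2%). The X values also count MLEwt peaks that MLEΔCBD did not list. Among X peaks found in both lists, the median ratio of widths was 0.877 for MSL1 and 0.429 for MSL2. Both MSL1 peaks and the MSL2 peak of roX1 lay above that median, and the MSL2 peak of roX2 (0.288) lay below it. With a window of 100 kb the neighbouring peaks come in, and the values at roX1 fell to 51.0% for MSL1 and 28.2% for MSL2.

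**Figure D5:**
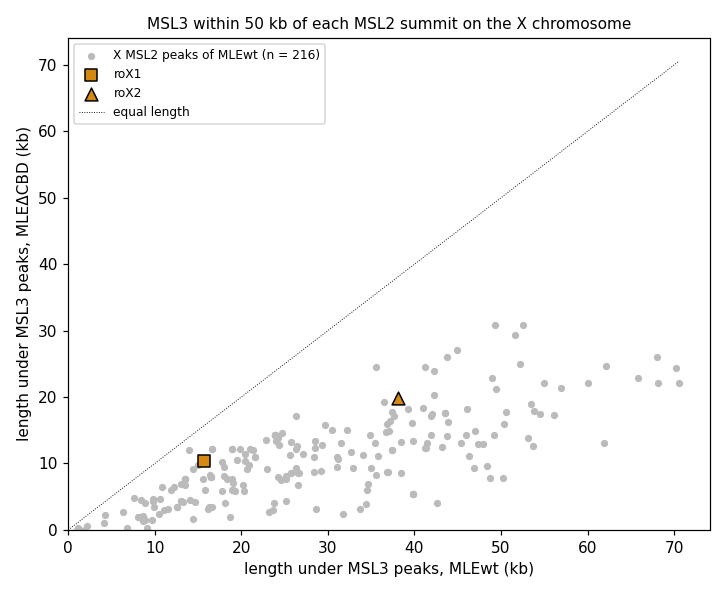
Each point is 1 of the 216 X peaks of MSL2 in MLEwt, with the length under MSL3 peaks within 50 kb of it in MLEwt (x axis, kb) and in MLEΔCBD (y axis, kb), and a dotted line at equal lengths. roX1 (square, 15.7 and 10.4 kb) lies in the lower part and close to the line, and roX2 (triangle, 38.2 and 19.8 kb) lies in the upper part.

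Last, the surroundings of the roX genes were set beside those of all 216 X peaks of MSL2 in MLEwt, measured within 50 kb of each. These windows overlap, so the sites are not independent and the ranks are a description. The median site had 26.3 kb under MSL3 in MLEwt and 10.3 kb in MLEΔCBD. Around roX1, 168 sites had more in MLEwt and 106 had more in MLEΔCBD (67 with a window of 25 kb), although its MSL2 peak was the highest of all. Around roX2, 62 sites had more in MLEwt and 21 in MLEΔCBD. The share of MSL3 length that MLEΔCBD kept had a median of 35.8% over the sites (quartiles 27.6% and 48.8%), and was exceeded by 4 sites at roX1 (11 with a window of 25 kb) and by 44 at roX2 (33). In peaks, the window of roX1 held 4 of MSL3 in both lines and that of roX2 held 9 and 8, against medians of 7 and 5 over the sites.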

How the data were processed

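ChIP-seq peak lists of MSL1, MSL2 and MSL3 from MLEwt and MLEΔCBD males were used as deposited. According to the processing notes and methods, the authors used cutadapt, Bowtie2, Picard, MACS2 and deepTools. The processing notes name both dm6 and dm3 as the genome, and the methods name dm6. Positions were read as dm6 here, which the peaks at roX1 and roX2 fit. Peaks were kept by the irreproducible discovery rate (IDR), and the role and settings of Picard are not given in the sources used here. The deposited table has 20 columns: the position, the fold enrichment (a ratio to background), the −log10 p-value and −log10 q-value, a score, the summit offset, the IDR (local, then global, as −log10), and the values of 2 peak sets. In each row the peak's own bounds and −log10 p repeat the first set, and the sets are not labelled with replicates. The highest global IDR was 0.0476 in the MSL2 lists and 0.00999784 in those of MSL1 and MSL3, so MSL2 was cut less strictly. No per-sample columns exist beyond these (0 unmapped), and no read counts were given, so depth, and the precision it gives, are unknown.

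From these lists, peaks within 50 kb of either gene were taken, positions were counted from 1, lengths were merged per list, and overlap meant at least 1 bp. Genes came from Ensembl release 115, without transposable elements, and sequence from the RefSeq genome of release 6. GA repeats were sought on both strands, and roX boxes on the strand of the gene. Ranks are by fold enrichment. Samples were grouped by their labels, and nothing was tested between lines. Alternatives were windows of 25 and 100 kb, −log10 q of 3 or more, global IDR of 0.01 or less, the second peak set, stricter overlap (50% of the shorter peak, summits within 250 bp), peaks wholly inside the window, gene overlap of at least 50% or with 200 bp on either side, ranks by −log10 p, 250 bp around summits and 3 GA units.

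The members and gene lists were chosen with earlier results of these data known. The genes named were the roX genes, their nearest neighbours, genes under MSL1 or MSL2, the farthest genes under MSL3, genes under MSL3 in 1 line only, and 6 dosage compensation genes. The remaining neighbours, and CG1703, Met and the narrow peak at ec, were named after their values were seen. Functions were tested on simulated lists. Python 3.11.15, numpy 2.4.6, pandas 2.3.3 and matplotlib 3.10.9 were used. The preimmune library and the coverage tracks were not used here.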

Additional observations from a re-analysis of the deposited data

How the results depend on the processing

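Of 192 values under the alternatives, 155 stayed within the spread of the 2 peak sets or, for counts, within 1.5 times, and 37 moved. Of these, 6 had to be counted as moved, because the second set itself defines the spread of the lengths kept, which says nothing of their stability. For the other 31 the cause was not tested beyond what each setting changes by its construction. With the second peak set the length kept in MLEΔCBD became 87.1% (MSL1), 64.0% (MSL2) and 60.9% (MSL3) at roX1, and 211%, 37.0% and 53.9% at roX2. A window of 100 kb took in further peaks. It gave 51.0% (MSL1), 28.2% (MSL2) and 60.1% (MSL3) at roX1 and 40.6% (MSL3) at roX2, found 2 MSL1 and 8 MSL3 peaks again around roX1, and put 3 and 2 genes there under MSL1, 3 under MSL2 in MLEwt, and 9 and 6 under MSL3. A window of 25 kb gave 59.3% for MSL3 at roX2, 67 MSL2 sites with more MSL3 than roX1 in MLEΔCBD, and 11 that kept a larger share of it.

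With at least 50% of the gene body under peaks, 0 genes around roX1 were under MSL1 or MSL2 in either line and 2 and 1 were under MSL3. Around roX2, 1 and 1 were under MSL1 and 0 under MSL2 in MLEΔCBD. With 200 bp on either side of genes, MSL2 of MLEwt touched 2 around roX2. By −log10 p the MSL1 peak of roX1 ranked 4 in MLEΔCBD. With 3 GA units, 2 peaks of each MSL1 and MSL2 list and 3 of each MSL3 list held the repeat. Stricter overlap, peaks wholly inside the window and 250 bp around summits moved nothing. Stricter peaks moved nothing either, but could not remove a peak around the roX genes. The MSL1 and MSL3 lists were already cut below the stricter IDR limit, and the MSL2 peaks at the roX genes passed it. Every peak around these genes had a −log10 q of at least 11.1, above the limit tried. The values under stricter peaks are in the count of those that stayed, but say nothing of stability.

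No paired analysis was possible because each list combines its replicates. Leaving out a replicate was not possible for the same reason. Each protein and line has 1 list, with unknown depth. A peak missing from a list is a peak that did not pass its threshold, which does not show that the protein was absent.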

Other observations

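Peaks at the other genes of the dosage compensation pathway give a second view of the lists. Of the 6 genes msl-1, msl-2, msl-3, mof, mle and Clamp, only mof lies on the X chromosome. mof, which encodes the acetyltransferase of the complex, was under 1 MSL3 peak over 90.6% of its body in MLEwt (fold enrichment 13.4) and 76.9% in MLEΔCBD (2.83), without a peak of MSL1 or MSL2. Clamp, on chromosome arm 2L, was under MSL3 over 57.1% in MLEwt (fold enrichment 2.44) and 26.8% in MLEΔCBD (2.18). msl-1 and msl-3 had no peak in any list.

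The other two, both autosomal, had peaks in MLEΔCBD only. Among all 14979 autosomal genes, 2.92% lay under an MSL1 peak in MLEΔCBD but not in MLEwt, and 2.51% under an MSL3 peak, and the MSL1 lists held 42 autosomal peaks in MLEwt and 377 in MLEΔCBD. At msl-2 there were 2 MSL1 peaks over 54.1% of the gene, with a fold enrichment of up to 3.13 and a best rank of 315 of 577. At mle there were 3 MSL3 peaks over 50.9% of the gene, with a fold enrichment of up to 2.83. The transgene carries mle sequence and was homozygous in MLEΔCBD but over TM6 in MLEwt, and peaks from the transgene and from the mle gene cannot be told apart in the lists.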
